A study of Zea mays with 30 samples.

Results

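Alcohol dehydrogenase1 (Adh1, Zm00001d033931), shrunken1 (Sh1, Zm00001d045042) and sucrose synthase1 (Sus1, Zm00001d047253) were followed through the germination of maize seeds. These 3 genes were taken by identifier, out of the 39005 genes of the count table, as genes of low-oxygen and sucrose metabolism, with no threshold on their values. The study sequenced RNA of whole seeds from 2 inbred lines that differ in how fast they germinate. Line 72-3, labelled as fast germinating, was sampled as dry seeds (0 h after imbibition, HAI) and at 6, 12 and 24 HAI. Line F9721, labelled as slow germinating, was sampled dry and then at 6, 12, 24, 36 and 48 HAI. Imbibition is the uptake of water that starts germination, and the seeds stood on wet filter paper at a constant warm temperature under a light and dark cycle. Each of the 10 groups of line and time held 3 libraries, which the methods describe as replicates from different ears with seeds pooled at each time. The p-values below therefore rest on the spread between such pools. Each line is 1 genotype, so a difference between the lines cannot be told apart from other differences between these genotypes.

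Adh1 encodes the enzyme that reduces acetaldehyde to ethanol and thereby returns NAD+ to glycolysis, and it is the classical anaerobic protein of maize. Sh1 and Sus1 encode sucrose synthases, which split sucrose with UDP into fructose and UDP-glucose, at a lower cost in ATP than the route through invertase and hexose kinases. Sh1 is named for the collapsed kernels of its mutants, in which starch filling of the developing endosperm fails, whereas Sus1 is known as the more widely used of the pair. Sucrose synthase is also counted among the anaerobic proteins of maize. Imbibing seeds are dense and respire behind a seed coat, so both activities are commonly studied in germination. Oxygen, ethanol and enzyme activities were not part of these data.

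The libraries held 8080968 to 14192708 reads counted on genes, with a median of 10887437.5. Reads that fell on no gene made up 5.59% to 20.9% of a library, with the highest share in replicate 3 of 72-3 at 6 HAI. Every library was closest to its own group, and the lowest correlation between libraries of a group was 0.921, in 72-3 at 24 HAI. The reads of both lines had been aligned to the B73 genome, and whether alleles that differ from B73 moved a level of these genes between the lines was not tested. The label of whole seed was not checked against embryo or endosperm markers, because none of the identifiers was in the RefSeq gene table used to look up marker symbols. In whole seeds, fewer cells of a type and less RNA per cell cannot be told apart.

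The 3 genes differed in the first time at which they passed the test against dry seeds, and in how far they rose. Differences between the genes were not themselves tested. For each gene, every library of 6 HAI lay above every dry seed library of its line. How many of all genes did so was not counted, and Adh1 and Sh1 did not pass at 6 HAI in either line. In both lines, Sus1 had already risen at 6 HAI, by 4.75-fold in 72-3 and 4.17-fold in F9721. The size of the 72-3 rise rests on replicate 2, without which its log2 fold change was 1.26. Adh1 had risen in both lines by 12 HAI. Sh1 had risen by 12 HAI in F9721, whereas in 72-3 it passed the test at 24 HAI and not before. Tested as an interaction, this line difference for Sh1 did not itself pass at 12 HAI (log2 -1.02, edgeR adjusted p = 0.0159) and did at 24 HAI. Sus1 also rose furthest, reaching 36.6-fold over dry seeds in 72-3 at 24 HAI and 73.5-fold in F9721 at 36 HAI.

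Levels are given as TMM-scaled counts relative to library size (CPM), in the order of replicates 1, 2 and 3, and a gene passed where the adjusted p of edgeR's quasi-likelihood test, over all genes tested, was at most 0.01. All 30 libraries were fitted together, so all comparisons of a gene share 1 estimate of its spread. That estimate can differ from the spread within the groups compared. Against dry seeds of the same line, 1 of the 3 genes passed as higher in 72-3 at 6 HAI, where 2.79% of all genes tested did. At 12 HAI 2 of 3 did so, against 14.3% of all genes, and at 24 HAI 3 of 3, against 26.4%. In F9721, 1 of 3 passed as higher at 6 HAI, where 3.15% of all genes did. All 3 passed as higher at 12 HAI (11.5%), 24 HAI (20%), 36 HAI (23.5%) and 48 HAI (25.4%). No member fell at any time. Each line's comparisons share its dry seed libraries. The shares of all genes include rarely read ones, since 22184 of the 34746 genes tested averaged a log2 CPM of 0 or more. Shares among those alone were not counted.

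**Figure D1:**
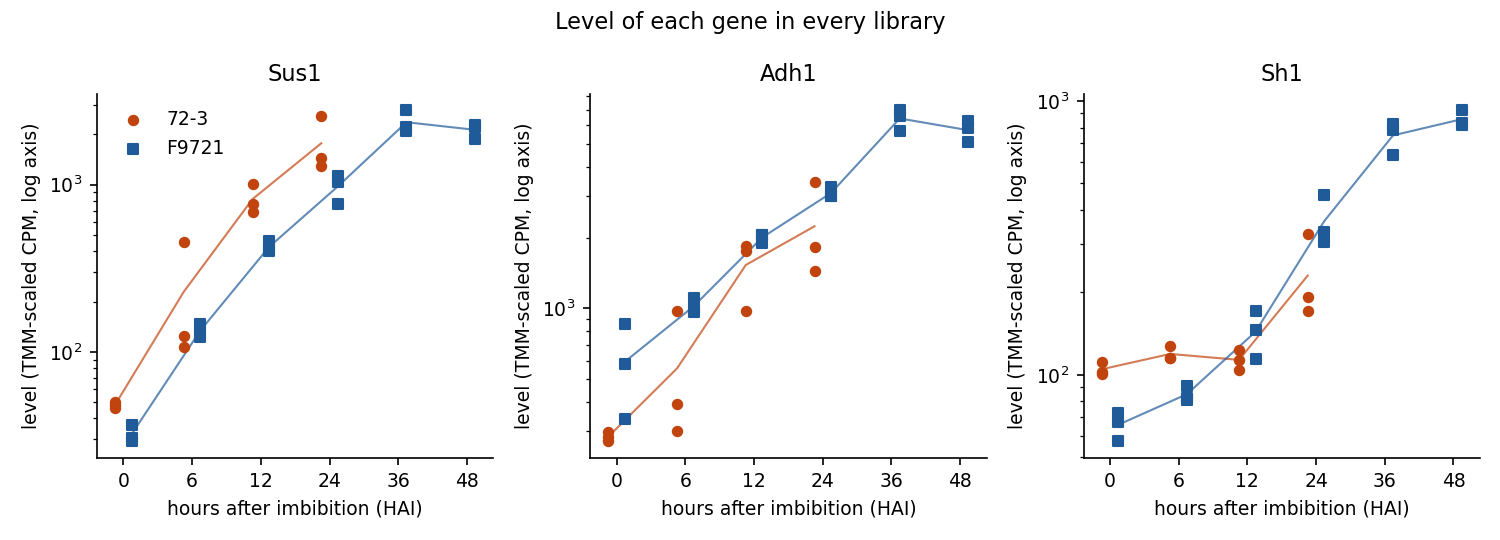
Level of Sus1, Adh1 and Sh1 (TMM-scaled CPM, log axis) against hours after imbibition, with 1 point per library (circles 72-3, squares F9721) and lines through the group means. Sus1 climbed at every sampled time up to 24 HAI in 72-3 and 36 HAI in F9721, while Sh1 of 72-3 stayed between 101 and 128 CPM until 12 HAI.

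Sus1 encodes the sucrose synthase that was the rarer mRNA of the pair in dry seeds. In 72-3 it stood at 46.5, 48.0 and 50.1 CPM in dry seeds, at 124, 455 and 107 CPM at 6 HAI, at 1011, 685 and 761 CPM at 12 HAI, and at 2560.4, 1444 and 1295 CPM at 24 HAI. In F9721 it stood at 30.7, 36.4 and 29.2 CPM in dry seeds, at 147, 123 and 131 CPM at 6 HAI, at 414, 458 and 398 CPM at 12 HAI, and at 1038, 765 and 1122 CPM at 24 HAI. It then stood at 2199, 2089 and 2790.0 CPM at 36 HAI and 1882, 2206 and 2286 CPM at 48 HAI in F9721. Every library lay above all libraries of the time before it, in both lines, except between 36 and 48 HAI in F9721, where the groups overlapped. Replicate 2 of 72-3 at 6 HAI was well above the other replicates of its group.

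Against dry seeds of 72-3, Sus1 rose by a log2 fold change of 2.25 (SE 0.34, edgeR adjusted p = 5.63e-05) at 6 HAI. Without replicate 2 of that time the change was 1.26, and it still passed (edgeR adjusted p = 0.000742), but a fit to only the groups compared gave 2.28 with an edgeR adjusted p of 0.0134. The rise reached 4.09 (SE 0.37, edgeR adjusted p = 2.16e-09) at 12 HAI and 5.20 (SE 0.39, edgeR adjusted p = 3.24e-12) at 24 HAI. In F9721 the log2 fold change was 2.06 (SE 0.35, edgeR adjusted p = 0.000151) at 6 HAI, 3.72 at 12 HAI and 4.92 at 24 HAI. It was 6.20 (SE 0.41, edgeR adjusted p = 2.68e-13) at 36 HAI and 6.05 at 48 HAI.

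Adh1, the fermentation enzyme, was the most abundant of the 3 mRNAs per length in every group mean. In 72-3 it stood at 283, 272 and 298 CPM in dry seeds, at 391, 975 and 300.5 CPM at 6 HAI, at 1757, 979 and 1850.0 CPM at 12 HAI, and at 3444, 1819.9 and 1435 CPM at 24 HAI. In F9721 it stood at 581, 859 and 338 CPM in dry seeds, at 1103, 989.7 and 966 CPM at 6 HAI, at 2059, 2053 and 1895 CPM at 12 HAI, and at 3279, 3005 and 2992 CPM at 24 HAI. It then stood at 6599, 5689 and 6967 CPM at 36 HAI and at 5093, 5824 and 6236 CPM at 48 HAI in F9721. The libraries of 72-3 spread widely at 6, 12 and 24 HAI, and those of 12 and 24 HAI overlapped. In F9721 the dry seeds spread most relative to their mean, and groups of successive times overlapped only at 36 and 48 HAI.

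At 6 HAI Adh1 did not pass in either line, with a log2 fold change against dry seeds of 0.97 (SE 0.33, edgeR adjusted p = 0.105) in 72-3 and 0.78 (SE 0.33, edgeR adjusted p = 0.255) in F9721. Without replicate 2 of 72-3 at 6 HAI the first of these values was 0.28. In 72-3 Adh1 rose by 2.43 (SE 0.35, edgeR adjusted p = 2.77e-06) at 12 HAI and 2.97 (SE 0.36, edgeR adjusted p = 3.14e-08) at 24 HAI. In F9721 it rose by 1.76 (SE 0.34, edgeR adjusted p = 0.000236) at 12 HAI, 2.38 at 24 HAI and 3.27 at 48 HAI. Its highest value was 3.44, or 10.8-fold, at 36 HAI. By then Adh1 was among the most abundant mRNAs of the seed, ranking 14 to 27 by TPM in the libraries of F9721 at 36 HAI and holding at least 0.625% of their counted reads. In dry seeds of F9721 it had ranked 272 to 667. In 72-3 Adh1 ranked 700 to 779 in dry seeds and 43 to 84 at 24 HAI.

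Sh1, the sucrose synthase of the developing endosperm, changed least in 72-3. In that line it stood at 102, 101 and 111 CPM in dry seeds, at 128, 115 and 115 CPM at 6 HAI, at 113, 104 and 123 CPM at 12 HAI, and at 328, 171 and 192 CPM at 24 HAI. In F9721 it stood at 72.6, 57.2 and 67.2 CPM in dry seeds, at 81.0, 91.3 and 82.6 CPM at 6 HAI, at 145, 171 and 115 CPM at 12 HAI, and at 334, 306 and 453 CPM at 24 HAI. It then stood at 785, 636 and 825 CPM at 36 HAI and at 832, 815 and 926 CPM at 48 HAI in F9721. The 72-3 libraries of 6 and 12 HAI overlapped, and those of 24 HAI lay above all earlier ones. In F9721 the libraries of each time lay above those of the time before, except for the overlap of 36 and 48 HAI.

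Against dry seeds of 72-3, the log2 fold change of Sh1 was 0.19 (SE 0.19, edgeR adjusted p = 0.751) at 6 HAI and 0.11 (SE 0.19, edgeR adjusted p = 0.736) at 12 HAI. It rose by 1.14 (SE 0.19, edgeR adjusted p = 5.92e-06), or 2.20-fold, at 24 HAI. In F9721 the value at 6 HAI was 0.37 (SE 0.19, edgeR adjusted p = 0.388). Sh1 then rose by 1.13 (SE 0.19, edgeR adjusted p = 3.60e-05) at 12 HAI, 2.47 (SE 0.20, edgeR adjusted p = 3.75e-11) at 24 HAI. The rise reached 3.51 at 36 HAI and 3.71, or 13.1-fold, at 48 HAI.

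**Figure D2:**
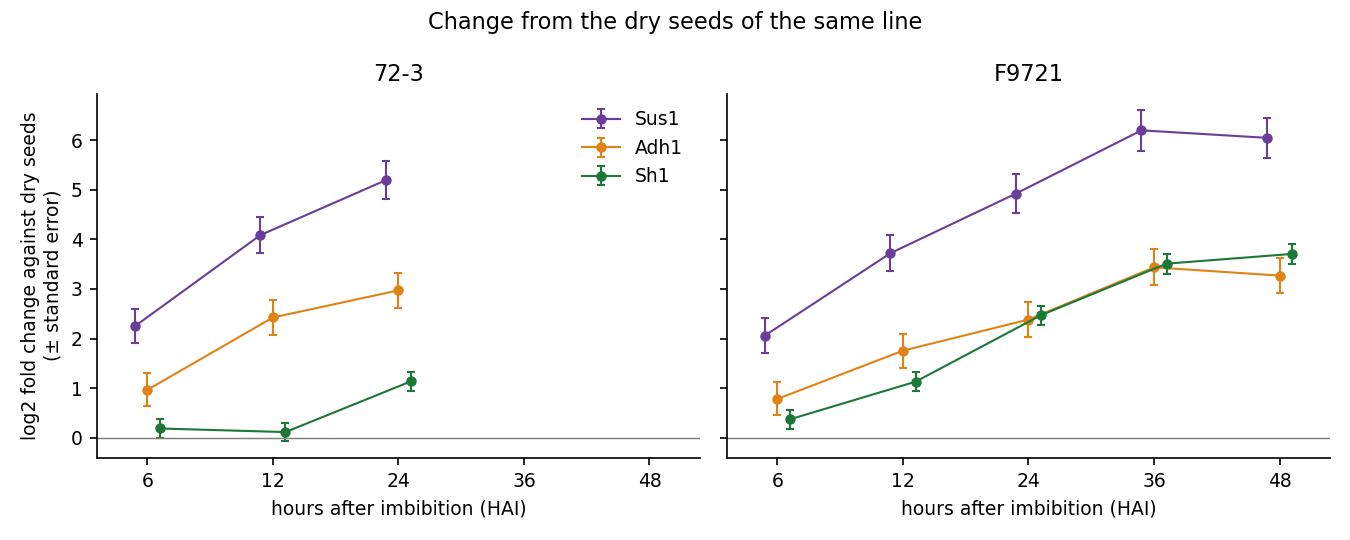
Log2 fold change of Sus1, Adh1 and Sh1 against dry seeds of the same line, from the edgeR fit with 3 libraries per group (bars, standard error), by hours after imbibition, with 72-3 on the left and F9721 on the right. In 72-3 the Sh1 points stay at 0.19 and 0.11 until 12 HAI and reach 1.14 at 24 HAI, while in F9721 they stand at 2.47 at 24 HAI and at 3.71 at 48 HAI, a time at which 72-3 was not sampled.

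The steps between successive times were less firmly resolved than the changes from dry seeds. From 6 to 12 HAI in 72-3, 2 of 3 genes rose, where 7.76% of all genes were higher, with log2 changes of 1.84 for Sus1 (edgeR adjusted p = 0.000192) and 1.46 for Adh1 (edgeR adjusted p = 0.00210), against -0.07 for Sh1, which turned to 0.21 with libraries scaled by total counts. Without replicate 2 of 6 HAI the 2 rises were 2.82 and 2.14. The Adh1 call was lost without replicate 1 or 3 of 6 HAI (1.26 and 1.16) and without replicate 1 or 3 of 12 HAI (1.35 and 1.30). From 12 to 24 HAI in 72-3, 2 of 3 rose, where 18.1% of all genes were higher, namely Sh1 by 1.02 (edgeR adjusted p = 4.32e-05) and Sus1 by 1.11 (edgeR adjusted p = 0.00670), while Adh1 gave 0.55. Sus1 lost its call without replicate 1 of 24 HAI (0.74), replicate 2 of 12 HAI (0.995) or replicate 3 of 12 HAI (1.06). In fits to only the groups compared none of these 4 calls held, with values of 1.86 for Sus1 and 1.48 for Adh1 in the earlier step, and 1.01 for Sh1 and 1.09 for Sus1 in the later one.

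In F9721, Sus1 rose by 1.66 (edgeR adjusted p = 0.00125) and Sh1 by 0.76 (edgeR adjusted p = 0.00684) from 6 to 12 HAI, so 2 of 3 passed, where 4.27% of all genes were higher. From 12 to 24 HAI 2 of 3 passed, where 7.83% were higher, with 1.34 for Sh1 (edgeR adjusted p = 4.39e-06) and 1.20 for Sus1 (edgeR adjusted p = 0.00747). From 24 to 36 HAI 2 of 3 passed, where 8% were higher, with 1.04 for Sh1 (edgeR adjusted p = 8.47e-05) and 1.28 for Sus1 (edgeR adjusted p = 0.00401). Adh1 passed in none of these steps in the edgeR fit to all libraries, with 0.97, 0.63 and 1.05. In fits to only the groups compared it passed in each of them. Its step from 24 to 36 HAI also passed in DESeq2 and on log2(TPM + 1). From 36 to 48 HAI 0 of 3 genes passed in edgeR, where 3.85% of all genes changed in either direction, and the values were -0.17 for Adh1, 0.20 for Sh1 and -0.15 for Sus1, none with an unadjusted p under 0.05 and none passing in DESeq2. The same-numbered libraries of these times deviated together, with correlations of 0.54, 0.66 and 0.86, and Sh1 was higher at 48 HAI within all 3 pairs. Of the 3 libraries at 36 HAI, 2 correlated best with the library of their own number. In a fit to only these 2 groups with the pairing as a block, Sh1 gave 0.23 (SE 0.07, edgeR adjusted p = 0.0446), Adh1 -0.14 and Sus1 -0.12, so 0 of 3 passed, while 4408 of 30376 genes tested passed, against 529 without the block. The Sh1 call from 6 to 12 HAI held in 1 of the 6 fits that left out a library, the one without replicate 3 of 12 HAI, with values of 0.61 to 0.90, and it was lost with DESeq2 size factors (0.70) and on log2(TPM + 1) (0.76). The Sus1 call from 12 to 24 HAI likewise held only without replicate 2 of 24 HAI, with values of 1.09 to 1.35. The Sus1 call from 24 to 36 HAI was lost without replicate 1 or 2 of 24 HAI (1.32 and 1.13) or replicate 3 of 36 HAI (1.14), and that from 6 to 12 HAI without replicate 2 of 6 HAI (1.60).

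Between genes, levels were compared in TPM, the deposited values per transcript length. Dry seeds of 72-3 averaged 137 ± 8.92 TPM of Adh1, 32.1 ± 2.32 TPM of Sh1 and 13.2 ± 0.605 TPM of Sus1 (SD, n = 3). Dry seeds of F9721 averaged 252 ± 96.8 TPM of Adh1, 18.1 ± 2.94 TPM of Sh1 and 7.88 ± 0.457 TPM of Sus1 (SD, n = 3). Sh1 was thus the more abundant sucrose synthase mRNA in dry seeds of both lines. At 24 HAI, 72-3 averaged 1633 ± 632 TPM of Adh1, 108 ± 31.8 TPM of Sh1 and 741 ± 224 TPM of Sus1. At 48 HAI, F9721 averaged 4049 ± 533 TPM of Adh1, 387 ± 48.9 TPM of Sh1 and 857 ± 105 TPM of Sus1. At these last sampled times the order of the pair was turned round, with Sus1 above Sh1 in every library.

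The share of Sh1 in the TPM of the pair Sh1 plus Sus1 does not depend on how libraries are scaled to each other. In 72-3 this share was 71.0%, 70.0% and 71.3% in dry seeds, 53.4%, 22.0% and 54.6% at 6 HAI, 11.1%, 14.5% and 15.2% at 12 HAI, and 12.5%, 11.6% and 14.2% at 24 HAI. In F9721 it was 72.5%, 63.7% and 71.9% in dry seeds, 38.0%, 45.3% and 41.2% at 6 HAI, 28.1%, 29.4% and 24.3% at 12 HAI, and 26.4%, 30.8% and 31.1% at 24 HAI. It averaged 26.2% at 36 HAI and 31.1% at 48 HAI in F9721. The lines overlapped in dry seeds and at 6 HAI, and did not overlap at 12 and 24 HAI.

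At 12 HAI the share averaged 13.6% in 72-3 and 27.3% in F9721, a difference of -13.7 percentage points (exact permutation test, two-sided p = 0.1, n = 3 each). At 24 HAI it averaged 12.8% in 72-3 and 29.4% in F9721, a difference of -16.6 points (exact permutation test, two-sided p = 0.1). With 3 libraries against 3, 0.1 is the smallest p that this test can give, so it cannot pass 0.05. In dry seeds the difference was 1.40 points and at 6 HAI 1.80 points (exact permutation p = 1 for both). The value at 6 HAI rests on replicate 2 of 72-3, without which the difference was 12.5 points.

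Adh1 relative to the pair also differed in level between the lines. The ratio of Adh1 TPM to the summed TPM of Sh1 and Sus1 averaged 3.03 in 72-3 and 9.95 in F9721 in dry seeds, and 2.58 in 72-3 and 7.81 in F9721 at 6 HAI. It averaged 2.82 in 72-3 and 6.04 in F9721 at 12 HAI, and 1.90 in 72-3 and 4.02 in F9721 at 24 HAI. The lines did not overlap at any of these 4 times (exact permutation test, two-sided p = 0.1 at each, the smallest possible). F9721 reached 3.54 at 36 HAI and 3.25 at 48 HAI, and its dry seeds spread most, with 9.13, 15.0 and 5.70.

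**Figure D3:**
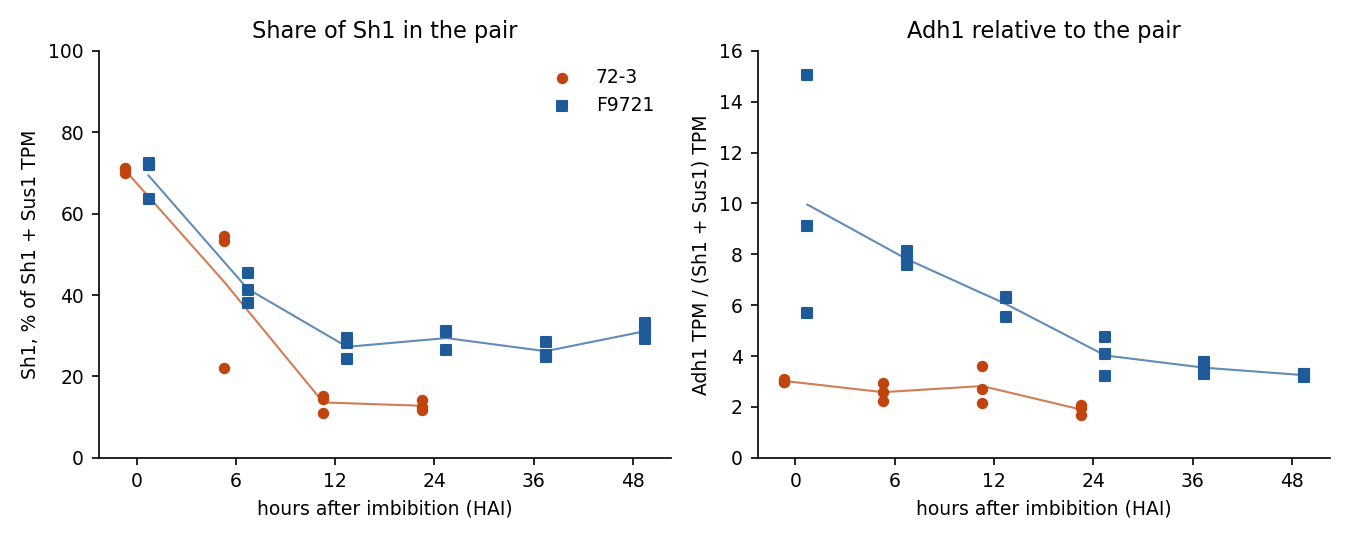
Share of Sh1 in the summed TPM of Sh1 and Sus1 (left, percent) and ratio of Adh1 TPM to that sum (right) against hours after imbibition, with 1 point per library (circles 72-3, squares F9721) and lines through the group means. Shares start near 70.8% in 72-3 and 69.4% in F9721, and at 24 HAI the 72-3 libraries lie at 11.6% to 14.2%, below all F9721 libraries.

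The lines were then compared at each shared time, as 72-3 over F9721. In dry seeds 1 of the 3 genes passed, where 28.3% of all genes tested differed in either direction. This was Sh1, higher in 72-3 with a log2 difference of 0.67 (SE 0.19, edgeR adjusted p = 0.00497). The call was lost in 5 of the 6 fits that left out a library, all but that without replicate 1 of the F9721 dry seeds, with values of 0.58 to 0.75. Adh1 differed by -1.06 (SE 0.34, edgeR adjusted p = 0.0131), did not pass, and passed without replicate 3 of the F9721 dry seeds (-1.34). It also passed in DESeq2 (-1.12), in edgeR with DESeq2 size factors (-1.12) and in a fit to only the groups compared. Sus1 differed by 0.59 (edgeR adjusted p = 0.195) and passed only in a fit to the groups compared alone.

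At 6 HAI 0 of 3 genes passed in edgeR, where 28.5% of all genes differed, with -0.88 for Adh1, 0.49 for Sh1 and 0.77 for Sus1. All 3 had an unadjusted p under 0.05, and none passed in DESeq2. Sh1 passed in a fit to only the groups compared and in limma on log2(TPM + 1) (0.66). Replicate 2 of 72-3 decides the first and the last of these values, since without it Adh1 gave -1.56 (edgeR adjusted p = 0.000302) and Sus1 gave -0.21. Without replicate 3 of 72-3, Sus1 gave 1.11 and passed (edgeR adjusted p = 0.00647).

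At 12 HAI 0 of 3 passed in edgeR, where 31.9% of all genes differed, and 1 of 3, Sus1, had an unadjusted p under 0.05, while none passed in DESeq2. Sus1 stood at 1011, 685 and 761 CPM in 72-3, against 414, 458 and 398 CPM in F9721, so the groups did not overlap, and its log2 difference was 0.95 (SE 0.33, edgeR adjusted p = 0.0200). It passed with libraries scaled by total counts (1.23), in a fit to only the groups compared (0.95) and in limma on log2(TPM + 1) (1.48). The values of Adh1 and Sh1 were -0.39 and -0.34, and on log2(TPM + 1) they turned to 0.11 and 0.22, where the median of all expressed genes stood at 0.42.

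At 24 HAI 1 of 3 passed, where 42.9% of all genes differed. Sh1 was lower in 72-3, by -0.66 on the log2 scale (SE 0.18, edgeR adjusted p = 0.00340). The call was lost without replicate 2 (-0.48) or 3 (-0.55) of 72-3, without replicate 3 of F9721 (-0.47), with total counts (-0.52), in a fit to only the groups compared (-0.69) and on log2(TPM + 1) (-0.28), and the difference was -1.004 without replicate 1 of 72-3. Adh1 gave -0.47 (edgeR adjusted p = 0.253) and Sus1 gave 0.86 (edgeR adjusted p = 0.0286). Sus1 passed in limma on log2(TPM + 1) (1.23).

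Whether the change from dry seeds differed between the lines was tested as an interaction, 72-3 minus F9721. At 24 HAI Sh1 passed, 1 of 3 genes, where 20.6% of all genes passed. Its rise was smaller in 72-3, with 1.14 in 72-3 against 2.47 in F9721, an interaction of -1.33 (SE 0.26, edgeR adjusted p = 0.000243). It passed under every alternative run and in all 12 fits that left out a library, which gave -1.68 to -1.15. At 12 HAI 0 of 3 passed in edgeR, where 3.24% of all genes passed. There Sh1 gave -1.02 (SE 0.26, edgeR adjusted p = 0.0159), had an unadjusted p under 0.05, and passed in DESeq2 (-0.97) and in a fit to only the groups compared (-0.999).

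At 6 HAI the interaction passed for 0 of 3 genes in edgeR and in DESeq2, where 0.135% of all genes passed in edgeR, and no member had an unadjusted p under 0.05. For Adh1 and Sus1 the interaction was positive at each time, from 0.18 to 0.67 and from 0.19 to 0.36, with standard errors near 0.47, so a difference of that size was not resolved. These signs turned at 6 HAI on log2(TPM + 1) (-0.0709 for Adh1 and -0.0493 for Sus1) and without replicate 2 of 72-3 at 6 HAI (-0.50 for Adh1 and -0.80 for Sus1). That of Adh1 at 6 HAI also turned without replicate 2 of the F9721 dry seeds (-0.18), and that of Sus1 at 24 HAI without replicate 1 of 72-3 (-0.10).

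**Figure D4:**
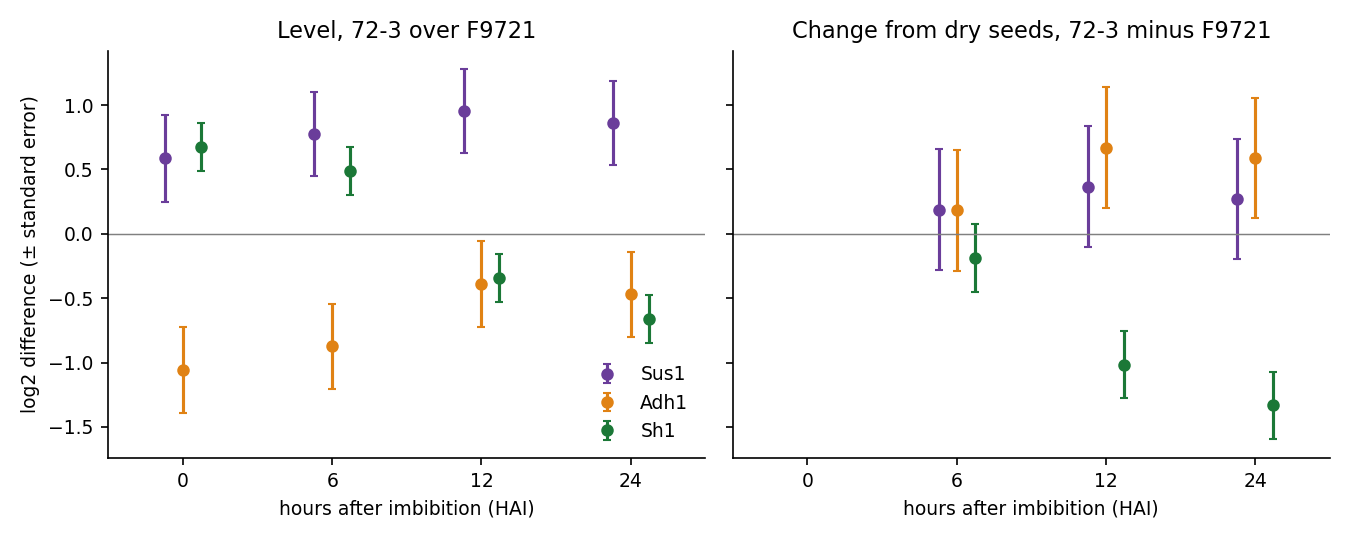
Log2 difference in level, 72-3 over F9721 (left), and difference in the change from dry seeds, 72-3 minus F9721 (right), for Sus1, Adh1 and Sh1 at the shared times (bars, standard error, 3 libraries per group). The Sh1 difference is 0.67 in dry seeds and -0.66 at 24 HAI, and its interaction at 24 HAI is -1.33.

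Groups of unlike times were also compared directly between the lines. Between 72-3 at 12 HAI and F9721 at 24 HAI, Sh1 passed, 1 of 3 genes, where 33.2% of all genes differed. Sh1 stood at 113, 104 and 123 CPM in 72-3 at 12 HAI, against 334, 306 and 453 CPM in F9721 at 24 HAI, a log2 difference of -1.68 (SE 0.19, edgeR adjusted p = 2.33e-08). Adh1 gave -1.02 (edgeR adjusted p = 0.0145) and passed in DESeq2 (-1.03) and in a fit to only the groups compared (-1.004), and Sus1 gave -0.25 (SE 0.32, edgeR adjusted p = 0.576).

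Between the last sampled times, 72-3 at 24 HAI and F9721 at 48 HAI, 2 of 3 genes passed, where 30.9% of all genes differed. Sh1 was lower in 72-3 by -1.90 (SE 0.19, edgeR adjusted p = 3.11e-09) and Adh1 by -1.36 (SE 0.34, edgeR adjusted p = 0.00171), and for both genes every 72-3 library lay below every F9721 library. The Adh1 call was lost without replicate 2 (-1.23) or 3 (-1.12) of 72-3 and in a fit to only the groups compared (-1.39). Sus1 differed by -0.27 (SE 0.32, edgeR adjusted p = 0.557), and its groups overlapped.

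Across all 10 groups, each gene was highest in F9721 at 36 or 48 HAI, and these top groups overlapped for each gene. Adh1 was lowest in dry seeds of 72-3 (285 ± 12.9 CPM), Sh1 in dry seeds of F9721 (65.7 ± 7.81 CPM) and Sus1 also in dry seeds of F9721 (32.1 ± 3.79 CPM; SD, n = 3). In the descending order of group means, the Adh1 libraries of F9721 at 24 HAI, 72-3 at 24 HAI and F9721 at 12 HAI overlapped from 1 group to the next, as did 72-3 at 12 HAI with F9721 at 6 HAI and F9721 dry seeds with 72-3 at 6 HAI. For Sh1 all neighbours from F9721 at 24 HAI down to dry seeds of 72-3 overlapped. For Sus1 the overlapping neighbours were the top 3 groups, then F9721 at 24 HAI with 72-3 at 12 HAI, and F9721 at 12 HAI, 72-3 at 6 HAI and F9721 at 6 HAI.

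The genes whose levels ran most like each member were ranked by Pearson's r of log2(CPM + 1) over the 30 libraries, among 22181 other genes whose log2 CPM averaged 0 or more. The 30 points share lines and times, so these values are a description. Nearest to Adh1 were Zm00001d012103 (r = 0.982) and Zm00001d042453 (r = 0.978). Nearest to Sh1 were Zm00001d015504 (r = 0.965) and Zm00001d048536 (r = 0.960), and nearest to Sus1 were Zm00001d016755 (r = 0.985) and Zm00001d036543 (r = 0.984). Many genes came close, since 430 had an r above 0.9 with Adh1, 303 with Sh1 and 651 with Sus1. Between the members, r was 0.899 for Adh1 and Sus1, 0.842 for Adh1 and Sh1, and 0.821 for Sh1 and Sus1.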

How the data were processed

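The submitters' processing notes name fastp, HISAT2, HTSeq and DESeq2 as tools and B73 RefGen_v4 as the genome, while tool versions and strand use are not given in the sources used here. The authors deposited raw counts per gene for each of 30 libraries, and deposited TPM in a series table. Reads on no gene (5.59% to 20.9%) or on several genes (1.60% to 2.11%) were left out. The counts were fitted with edgeR 4.0.16 (glmQLFit, TMM, 10 group means, genes with at least 1 read, 34746 genes), with Benjamini-Hochberg adjustment over all genes. The dispersion setting (legacy = FALSE, without estimateDisp) was taken after a first fit with estimateDisp had been seen to give other counts of genes past the threshold and at least a log2 change of 2 (520, against 505 here, for 72-3 at 6 HAI) than an earlier account of these data, whose counts the present setting gives. That first fit was kept as an alternative, and no call of the 3 genes differed between them (69 of 69).

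Standard errors were the log2 fold change over the square root of F. Alternatives used DESeq2 1.42.0, other scalings and filters, limma 3.58.1 on TPM, a replicate block, and fits without each library. The scripts were tested on simulated data. A replicate number is tied to no ear in the sources, and same-numbered libraries correlated over 0.1 in all 3 pairs for 2 of 45 pairs of groups. Libraries were therefore not treated as pairs, except in an added fit with a block for the only such groups compared here, F9721 at 48 and 36 HAI. The members and lists were chosen with earlier results of these data known. Named genes were the 3 members and, for each, the 2 genes with the highest r. None of the 39005 identifiers was in the RefSeq gene table used, so pathway and marker lists by symbol, coordinates and sequences were not analysed here.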

Additional observations from a re-analysis of the deposited data

Results flagged for a closer look

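The change of Sh1 from dry seeds to 24 HAI differed between the lines by a test of the difference itself, the interaction of line and time, which was -1.33 on the log2 scale (72-3 minus F9721, SE 0.26, edgeR adjusted p = 0.000243). Sh1 was higher at 24 HAI than in dry seeds in 3 of 3 libraries of 72-3 and 3 of 3 of F9721, by 2.20-fold in 72-3 and 5.55-fold in F9721. The share of Sh1 in the pair with Sus1, which was lower in 72-3 at 24 HAI (12.8% in 72-3 and 29.4% in F9721), uses the same libraries and is no separate evidence. Replicate 1 of 72-3 at 24 HAI was the highest of its group for all 3 genes, and the interaction passed without it.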

How the results depend on the processing

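Of the 69 values of the 3 genes from the edgeR fit, 35 passed and 23 of these passed under every alternative and in every fit without 1 library. Of the 19 calls against dry seeds, 18 did so. The first dispersion setting, added after the data had been seen, changed none of the 69 calls, nor did the other filters on low counts. The replicate block changed none either, and its interaction of Sh1 at 24 HAI was -1.35. Same-numbered libraries correlated by -0.40 to 0.86 (median 0.02), and the numbers were not taken as pairs except for F9721 at 36 and 48 HAI, where a blocked fit to those groups, added after the data had been seen, changed no call of the 3 genes. Total counts moved the median change of all expressed genes by up to 0.42 on the log2 scale against TMM, and log2(TPM + 1) by up to 0.50, both in comparisons with dry seeds. Between the lines at 12 HAI this median was 0.01 with TMM, 0.29 with total counts and 0.42 on log2(TPM + 1). Line differences under these therefore depend on the scaling. Counts of these genes were at least 256 in every library, and the standard errors of line differences were near 0.33 for Adh1 and Sus1. With DESeq2 size factors, calls were lost at 0.70 for Sh1 (12 against 6 HAI in F9721), and calls were gained at -1.12 for Adh1 (72-3 against F9721 at 0 HAI). With total counts in place of TMM, calls were lost at -0.52 for Sh1 (72-3 against F9721 at 24 HAI), and calls were gained at 1.23 for Sus1 (72-3 against F9721 at 12 HAI), and the sign turned at 0.21 for Sh1 (12 against 6 HAI in 72-3). In DESeq2, calls were gained at 1.10 for Adh1 (36 against 24 HAI in F9721), -1.12 for Adh1 (72-3 against F9721 at 0 HAI), -0.97 for Sh1 (interaction at 12 HAI), -1.03 for Adh1 (72-3 at 12 HAI against F9721 at 24 HAI). In fits to only the groups compared, calls were lost at 2.28 for Sus1 (72-3 at 6 HAI against dry seeds), 1.48 for Adh1 (12 against 6 HAI in 72-3), 1.86 for Sus1 (12 against 6 HAI in 72-3), 1.01 for Sh1 (24 against 12 HAI in 72-3), 1.09 for Sus1 (24 against 12 HAI in 72-3), -0.69 for Sh1 (72-3 against F9721 at 24 HAI), -1.39 for Adh1 (72-3 at 24 HAI against F9721 at 48 HAI), and calls were gained at 0.97 for Adh1 (12 against 6 HAI in F9721), 0.63 for Adh1 (24 against 12 HAI in F9721), 1.05 for Adh1 (36 against 24 HAI in F9721), -1.10 for Adh1 (72-3 against F9721 at 0 HAI), 0.55 for Sus1 (72-3 against F9721 at 0 HAI), 0.49 for Sh1 (72-3 against F9721 at 6 HAI), 0.95 for Sus1 (72-3 against F9721 at 12 HAI), -0.999 for Sh1 (interaction at 12 HAI), -1.004 for Adh1 (72-3 at 12 HAI against F9721 at 24 HAI). On log2(TPM + 1), with or without a minimum mean TPM of 1, and on log2(TPM + 0.1), calls were lost at 0.76 and 0.78 for Sh1 (12 against 6 HAI in F9721), -0.28 and -0.28 for Sh1 (72-3 against F9721 at 24 HAI), calls were gained at 1.43 and 1.43 for Adh1 (36 against 24 HAI in F9721), 0.66 and 0.68 for Sh1 (72-3 against F9721 at 6 HAI), 1.48 and 1.48 for Sus1 (72-3 against F9721 at 12 HAI), 1.23 and 1.23 for Sus1 (72-3 against F9721 at 24 HAI), and the sign turned at 0.32 and 0.32 for Sh1 (12 against 6 HAI in 72-3), 0.11 and 0.11 for Adh1 (72-3 against F9721 at 12 HAI), 0.22 and 0.22 for Sh1 (72-3 against F9721 at 12 HAI), -0.0709 and -0.0704 for Adh1 (interaction at 6 HAI), -0.0493 and -0.0994 for Sus1 (interaction at 6 HAI). At an adjusted p of at most 0.001 the calls lost were 1.46 for Adh1 (12 against 6 HAI in 72-3), 1.11 for Sus1 (24 against 12 HAI in 72-3), 0.76 for Sh1 (12 against 6 HAI in F9721), 1.66 for Sus1 (12 against 6 HAI in F9721), 1.20 for Sus1 (24 against 12 HAI in F9721), 1.28 for Sus1 (36 against 24 HAI in F9721), 0.67 for Sh1 (72-3 against F9721 at 0 HAI), -0.66 for Sh1 (72-3 against F9721 at 24 HAI), -1.36 for Adh1 (72-3 at 24 HAI against F9721 at 48 HAI). Leaving out 1 library at a time changed a call or a sign for results that then ranged over -1.34 to -0.69 for Adh1 (72-3 against F9721 at 0 HAI), 0.58 to 0.75 for Sh1 (72-3 against F9721 at 0 HAI), -0.50 to 0.48 for Adh1 (interaction at 6 HAI), -0.80 to 0.53 for Sus1 (interaction at 6 HAI), -0.10 to 0.45 for Sus1 (interaction at 24 HAI), 1.16 to 2.14 for Adh1 (12 against 6 HAI in 72-3), 0.74 to 1.29 for Sus1 (24 against 12 HAI in 72-3), -1.004 to -0.47 for Sh1 (72-3 against F9721 at 24 HAI). The others ranged over -1.81 to -1.12 for Adh1 (72-3 at 24 HAI against F9721 at 48 HAI), -1.56 to -0.58 for Adh1 (72-3 against F9721 at 6 HAI), -0.21 to 1.11 for Sus1 (72-3 against F9721 at 6 HAI), 0.61 to 0.90 for Sh1 (12 against 6 HAI in F9721), 1.60 to 1.74 for Sus1 (12 against 6 HAI in F9721), 1.09 to 1.35 for Sus1 (24 against 12 HAI in F9721), 1.13 to 1.39 for Sus1 (36 against 24 HAI in F9721), -1.45 to 2.96 for the Sh1 share (72-3 against F9721 at 0 HAI), -3.83 to 12.5 for the Sh1 share (72-3 against F9721 at 6 HAI). Of the 2 genes most like each member, Spearman ranking kept 2 for Adh1, 1 for Sh1 and 0 for Sus1, and group means kept 0, 1 and 1.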
